A study of Mus musculus with 16 samples.

Results

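Genes of DNA replication and mitosis were followed in E18.5 mouse embryos, in preparations of glomeruli, where the kidney filters blood. The 45 genes are 20 that copy DNA or supply and control that step, from the Mcm helicase to the S phase kinase Chek1, and 25 that carry the cell through mitosis. Each was represented by the array's transcript cluster with its symbol, the cluster of highest mean over the 8 arrays where there were several. By this rule 43 genes had a cluster, out of 18302 genes with a symbol of their own and 93623 clusters in all; the levels of Rrm2 and Ccnb1 were not analysed here, and they enter only the promoter counts. Of the 43, 19 belong to replication and 24 to mitosis.

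The mutant group held 4 embryos labelled wt1(+KTS) mutant and named Frasier, and the other group 4 wild-type embryos, all of the same age on a mixed C57Bl6 and DBA2 background with no treatment. WT1 is a zinc finger protein of podocytes, which wrap the capillaries of the glomerulus. Splicing puts the amino acids KTS between its zinc fingers or leaves them out, and in Frasier syndrome less of the longer (+KTS) form is made. The labels give neither zygosity, litter nor sex. Beads perfused through the heart allowed glomeruli to be pulled out with a magnet, and the RNA of each embryo went on its own Affymetrix exon array, so n was 4 per genotype. All values are log2 signals, and a difference is the mutant mean minus the wild-type mean.

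A dividing cell first licenses its origins by loading the Mcm2 to Mcm7 ring with the help of Cdc6 and Cdt1, then fires them, and polymerase alpha with its primase starts each new strand. E2F factors switch on these genes late in G1. The genes of mitosis follow in G2, when repression through an element called CHR is lifted and the kinase Cdk1 with its cyclins starts chromosome condensation, spindle assembly and, through Cdc20, anaphase. Late in gestation the kidney still forms nephrons at its rim, where progenitors and young nephrons divide, while podocytes in formed glomeruli have left the cell cycle.

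Promoter elements differed between the classes, and promoters are shown for that reason. RefSeq windows of build GRCm38.p6, from 250 bases before to 50 after a gene's start, were found for 39 of the 45 genes. They were searched on both strands for an E2F core (TTGGCGC, or else TTCGCGC, or else TTCCCGC, or else TTGCCGC), a CHR (TTTGAA, or else TTCGAA) and a CCAAT box (CCAAT). The E2F core occurred in 12 of 18 replication windows (66.7%) and 3 of 21 mitosis windows (14.3%), against 9.69% of all 27025 windows of this length. The CHR occurred in 3 of 18 replication windows (16.7%) and 17 of 21 mitosis windows (81.0%), against 19.4% of all windows. A CCAAT box stood in 12 of 18 replication windows and 17 of 21 mitosis windows, against 37.9% of all windows. A match is a description of these letters and not a binding site.

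For each class the windows of the 3 genes with the smallest p between genotypes, among those with a window to show, are printed with each match in capitals. Rrm1, E2f8 and Chek1 carry an E2F core, which in E2f8 overlaps the CCAAT box read on the other strand. E2f8 also holds a CHR. Cenpa, Bub1 and Kif11 carry a CHR and a CCAAT box and no E2F core.
Rrm1, chr7:102441445-102441744, plus strand: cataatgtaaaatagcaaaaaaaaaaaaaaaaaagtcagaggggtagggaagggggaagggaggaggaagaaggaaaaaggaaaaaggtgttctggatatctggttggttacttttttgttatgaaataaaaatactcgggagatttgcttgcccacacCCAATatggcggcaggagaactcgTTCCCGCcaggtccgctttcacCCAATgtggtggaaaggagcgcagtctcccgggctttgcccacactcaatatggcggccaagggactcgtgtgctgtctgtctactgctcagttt
E2f8, chr7:48881547-48881846, minus strand: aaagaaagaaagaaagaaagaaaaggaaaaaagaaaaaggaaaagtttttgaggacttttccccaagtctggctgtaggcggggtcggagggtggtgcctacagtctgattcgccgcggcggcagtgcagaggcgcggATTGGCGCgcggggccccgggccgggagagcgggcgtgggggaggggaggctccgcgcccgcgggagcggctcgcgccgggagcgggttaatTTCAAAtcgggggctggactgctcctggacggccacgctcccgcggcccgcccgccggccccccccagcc
Chek1, chr9:36726609-36726908, minus strand: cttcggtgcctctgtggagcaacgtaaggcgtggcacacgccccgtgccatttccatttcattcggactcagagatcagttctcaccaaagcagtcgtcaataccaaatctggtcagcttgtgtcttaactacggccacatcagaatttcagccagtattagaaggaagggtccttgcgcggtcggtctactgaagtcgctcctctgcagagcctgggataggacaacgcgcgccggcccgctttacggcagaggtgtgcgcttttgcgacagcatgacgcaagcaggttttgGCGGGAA
Cenpa, chr5:30666636-30666935, plus strand: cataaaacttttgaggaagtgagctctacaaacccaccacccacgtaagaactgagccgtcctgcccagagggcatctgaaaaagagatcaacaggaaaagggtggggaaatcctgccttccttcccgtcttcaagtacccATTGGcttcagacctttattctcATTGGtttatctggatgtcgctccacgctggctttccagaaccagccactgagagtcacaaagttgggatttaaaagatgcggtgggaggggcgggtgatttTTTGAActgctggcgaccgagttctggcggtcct
Bub1, chr2:127831810-127832109, minus strand: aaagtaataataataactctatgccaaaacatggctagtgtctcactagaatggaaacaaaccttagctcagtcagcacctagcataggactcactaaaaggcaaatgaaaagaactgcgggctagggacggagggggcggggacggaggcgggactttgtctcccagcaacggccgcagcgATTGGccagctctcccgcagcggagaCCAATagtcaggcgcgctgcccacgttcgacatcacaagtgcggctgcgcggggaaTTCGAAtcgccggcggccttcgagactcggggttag
Kif11, chr19:37376132-37376431, plus strand: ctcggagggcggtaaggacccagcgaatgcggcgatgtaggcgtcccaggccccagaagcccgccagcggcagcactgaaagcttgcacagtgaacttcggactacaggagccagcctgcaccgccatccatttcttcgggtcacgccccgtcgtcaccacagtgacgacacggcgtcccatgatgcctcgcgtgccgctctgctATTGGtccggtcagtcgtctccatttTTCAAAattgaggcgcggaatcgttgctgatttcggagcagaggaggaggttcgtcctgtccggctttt

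Some properties of the arrays bear on what follows. Wild-type replicate 4 stood apart (Pearson correlation 0.869 to 0.918 across clusters with each other array), and it had the lowest signal of all 8 arrays for 29 of the 43 genes; mutant replicate 3 had the highest for 23. A letter that ends each sample code occurs in 1 genotype only, so genotype and what the letter marks cannot be told apart. Wild-type replicate 4 was the only array with its letter, and so was mutant replicate 1. The other wild-type arrays shared a letter, as did the other mutant arrays. For wild-type replicate 4 and mutant replicate 1, the embryo and what the letter marks cannot be told apart either. Wt1 itself had log2 signals of 8.77, 8.86, 9.02 and 8.97 in mutant replicates 1 to 4, against 9.09, 8.95, 9.04 and 8.97 in wild-type replicates 1 to 4, and these overlapped. The mutation concerns splicing, which the level of Wt1 does not check. Podocyte markers were present, with mutant means of 10.46 for podocalyxin (Podxl) and 7.96 for nephrin (Nphs1), against wild-type means of 10.75 and 8.44. Markers of the proximal tubule were present too. Among them Lrp2 and Cubn had mutant means of 10.48 and 10.49, against wild-type means of 11.03 and 10.67. The arrays therefore do not measure glomeruli alone. Signals of different genes are not comparable, so the share of tubule was not measured.

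Most replication genes and most mitosis genes stood higher in the mutants by small amounts, and no single gene passed the test over all clusters. The median difference was 0.34 for the replication genes, of which 17 of 19 were higher in the mutants, and 0.16 for the mitosis genes, of which 20 of 24 were higher. Over all clusters the median was −0.032, with 44.6% higher, and over 1 cluster per symbol it was 0.032, with 56.6% higher. The difference between both classes was not tested. Limma called 0 of the 43 genes at an adjusted p under 0.05, where 0.827% of all 93623 clusters were called; the smallest adjusted p among them was 0.082. At an unadjusted p under 0.05 there were 17 higher, 13 of them in replication, and 1 lower, where 6.65% of all clusters and 10.8% of clusters at 1 per symbol were higher at that level.

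In 19 genes all 4 mutant arrays lay above all 4 wild-type arrays, against 4.79% of all clusters and 11.9% at 1 per symbol. These were 14 of 19 replication genes and 5 of 24 mitosis genes. In 2 genes, Pcna and Cenpa, all mutant arrays lay below, against 4.74% of all clusters. Without wild-type replicate 4 the median difference was 0.31 for replication and 0.088 for mitosis, so the mitosis value moved by over 1.5 times with that array; without mutant replicate 3 they were 0.30 and 0.13. In bulk RNA a larger share of dividing cells and more RNA per dividing cell cannot be told apart.

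The calls depend on which rows are tested and how a gene is summarized. With clusters at or above the 50th percentile of mean signal, limma called Rrm1 (adjusted p = 0.0398), where 2.56% of such clusters were called, 1.11% higher and 1.45% lower. With the 20707 clusters of 1 symbol alone, limma called 10 of the genes higher and 1 lower, where 4.3% and 2.5% of those clusters were (6.8% in either direction). These were Rrm1, E2f8, Chek1, Mcm2, Mcm4, Mcm5, Cdc6, Prim1, Kif20a and Tpx2, and, lower, Cenpa. With the mean of a gene's exon-level probe sets in place of the cluster, 17 of 42 genes were called, all higher, where 11.4% of 18513 genes were called and 8.35% were called higher. The 10 higher genes just named were among the 17, with Mcm7, Cdt1, Pola1, Ccna2, Ccnb2, Aurkb and Ube2c beside them.

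**Figure D1:**
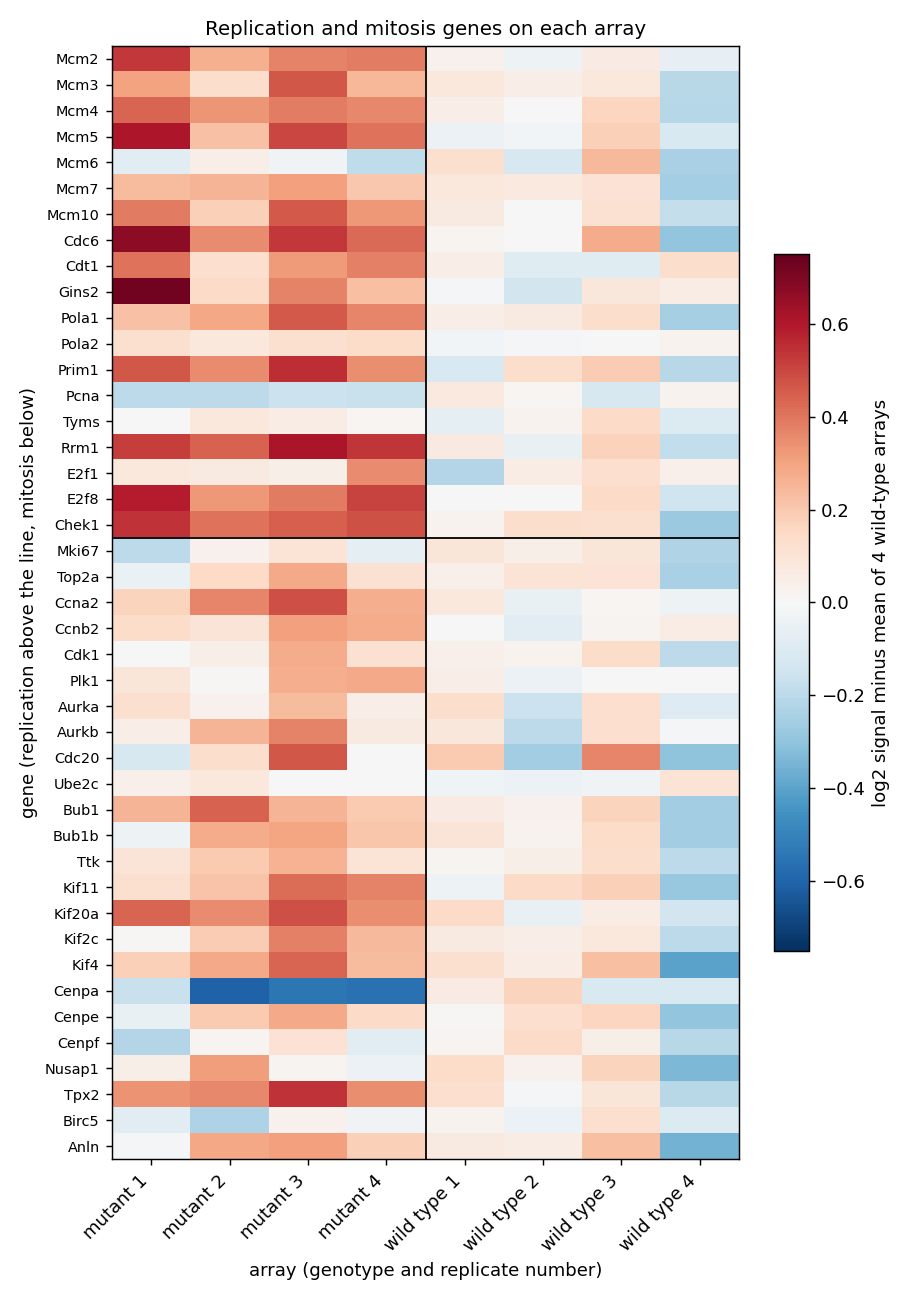
Log2 signal of each of the 43 genes (rows, replication above the line and mitosis below) on each array (columns, mutants left), as the difference from the mean of the 4 wild-type arrays. The mutant columns are redder in the upper block, wild-type replicate 4 is the bluest wild-type column, and Cenpa and Pcna run the other way.

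Of the genes that license and unwind origins 9 of 10 were higher in the mutants, with a median difference of 0.35, and limma called 0 (8 at an unadjusted p under 0.05). Cdc6, the loader of the Mcm ring, had log2 signals of 7.78, 7.46, 7.64 and 7.53 in mutant replicates 1 to 4, against 7.13, 7.11, 7.39 and 6.82 in wild-type replicates 1 to 4. All 4 mutant arrays lay above the wild type, and the difference was 0.49 ± 0.14 (SE; limma adjusted p = 0.166). Mcm5, a subunit of the ring, had log2 signals of 8.73, 8.34, 8.62 and 8.53 in mutant replicates 1 to 4, against 8.08, 8.10, 8.30 and 8.00 in wild-type replicates 1 to 4, and Mcm2, another subunit, stood at 8.99, 8.73, 8.83 and 8.84 in mutant replicates 1 to 4, against 8.49, 8.42, 8.52 and 8.40 in wild-type replicates 1 to 4. Neither overlapped between genotypes, with differences of 0.43 ± 0.13 and 0.39 ± 0.11 (SE; adjusted p = 0.167 and 0.148).

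The other ring subunits were less even. Mcm4 averaged 9.69 ± 0.045 in the mutants and 9.31 ± 0.16 in the wild type (SD, n = 4 each), Mcm3 differed by 0.29 and Mcm7 by 0.25, all with the genotypes apart. A second cluster annotated to Mcm7 averaged 7.49 in the mutants and 5.92 in the wild type, a difference of 1.57 ± 0.37 (SE, limma adjusted p = 0.102). The 4 exon-level probe sets of Mcm7 differed by 0.40 to 0.65 only. Whether the second cluster measures Mcm7 itself was not tested, so its difference is not taken as a size for this gene. Mcm6 is the exception in the ring. It had log2 signals of 8.92, 9.06, 8.98 and 8.82 in mutant replicates 1 to 4, against 9.13, 8.89, 9.25 and 8.77 in wild-type replicates 1 to 4, which overlapped, and its difference of −0.063 had a 95% interval of −0.37 to 0.24. Mcm10, which activates the ring, differed by 0.34, Gins2, a part of the active helicase, by 0.37, and Cdt1, the partner of Cdc6, by 0.31. Of these Cdt1 alone overlapped, since wild-type replicate 4 stood at 7.68 and mutant replicate 2 at 7.67.

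Among the enzymes that start strands, the primase subunit Prim1 had log2 signals of 8.43, 8.32, 8.52 and 8.32 in mutant replicates 1 to 4, against 7.86, 8.10, 8.16 and 7.76 in wild-type replicates 1 to 4. The genotypes did not overlap, and the difference was 0.43 ± 0.13 (SE; adjusted p = 0.175). Pola1, the catalytic subunit of polymerase alpha, differed by 0.33 and Pola2, its B subunit, by 0.11, both without overlap. Pcna, the sliding clamp, had log2 signals of 7.86, 7.87, 7.90 and 7.90 in mutant replicates 1 to 4, against 8.14, 8.08, 7.94 and 8.09 in wild-type replicates 1 to 4. It lay lower in all 4 mutants, against the direction of its class, with a difference of −0.18 ± 0.10 (SE; adjusted p = 0.461). No exon-level probe set carried the symbol Pcna, so the clamp rests on 1 cluster.

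The large subunit of ribonucleotide reductase, Rrm1, which makes the building blocks of DNA, had the smallest p of all 43 genes. Rrm1 had log2 signals of 10.09, 10.02, 10.19 and 10.11 in mutant replicates 1 to 4, against 9.65, 9.52, 9.75 and 9.39 in wild-type replicates 1 to 4. Every mutant array stood above every wild-type array, and the difference was 0.53 ± 0.12 (SE), or 1.44-fold, with a 95% interval of 0.27 to 0.79 and an adjusted p of 0.082. With limma's trend and robust options the adjusted p was 0.0397. Tyms, thymidylate synthase, which makes another building block, averaged 7.82 ± 0.038 in the mutants and 7.78 ± 0.11 in the wild type (SD, n = 4 each), a difference of 0.037 with an interval of −0.20 to 0.27.

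All 3 regulators of S phase were higher in the mutants, with a median of 0.45. E2f8, a repressor of the E2F family that is itself made in S phase, had log2 signals of 8.79, 8.53, 8.60 and 8.71 in mutant replicates 1 to 4, against 8.21, 8.21, 8.35 and 8.06 in wild-type replicates 1 to 4. The genotypes were apart, by 0.45 ± 0.12 (SE; adjusted p = 0.122); a second, dimmer cluster of E2f8 differed by −0.22 ± 0.11 (adjusted p = 0.427). Chek1, the kinase that holds the cell cycle when forks stall, had log2 signals of 8.76, 8.63, 8.67 and 8.70 in mutant replicates 1 to 4, against 8.25, 8.35, 8.34 and 7.94 in wild-type replicates 1 to 4. These too were apart, by 0.47 ± 0.12 (SE; adjusted p = 0.133). E2f1, the activator, overlapped and differed by 0.14 with an interval of −0.15 to 0.42.

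**Figure D2:**
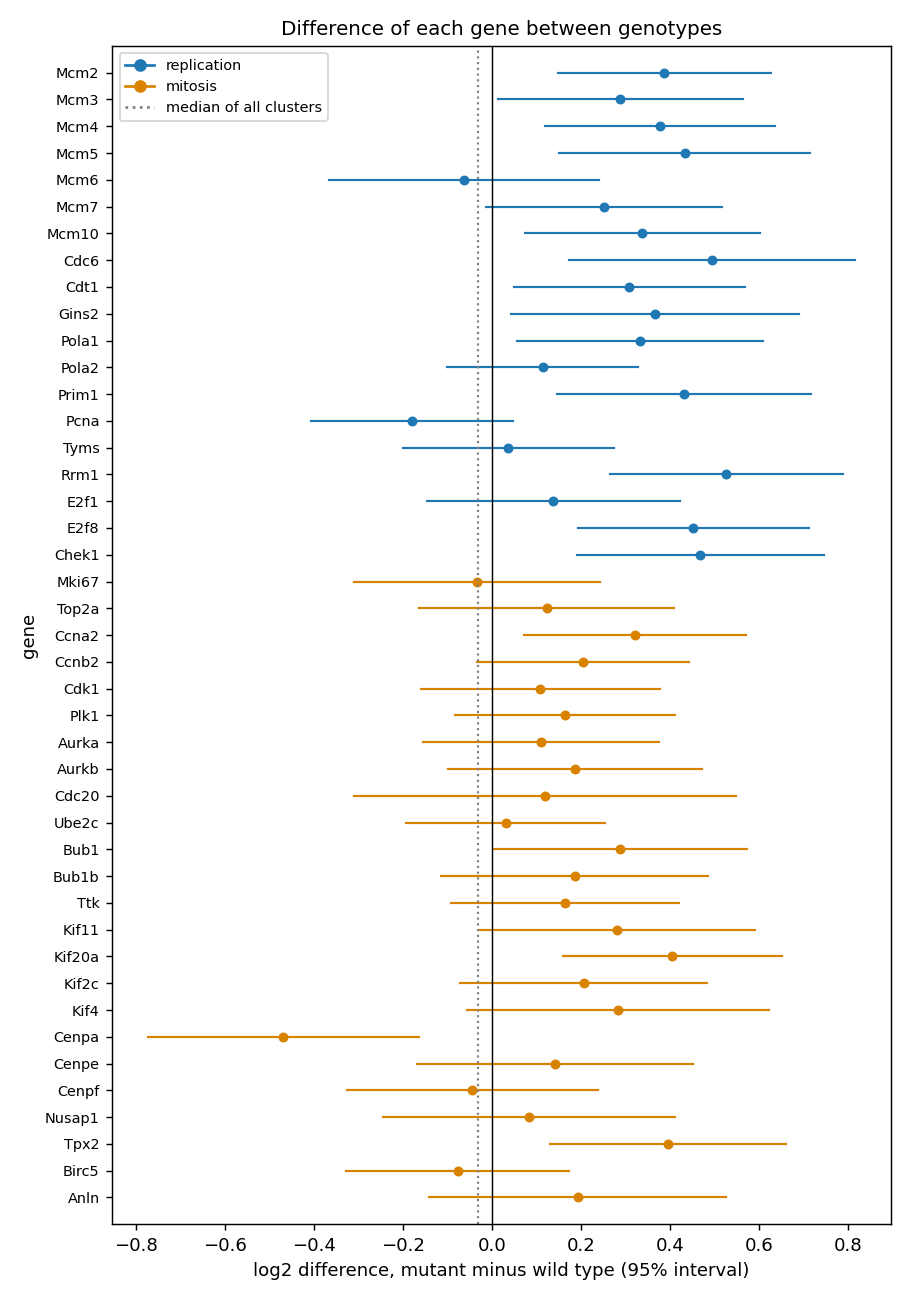
Log2 difference of each of the 43 genes, mutant minus wild type, with its 95% interval from limma (replication blue, mitosis orange), and the median of all clusters as a dotted line. Most blue points lie between 0.25 and 0.53, most orange points between 0.03 and 0.41, and Cenpa lies lowest at −0.47.

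In mitosis, common labels of dividing cells overlapped between genotypes. Mki67, which coats mitotic chromosomes and gives the Ki-67 antigen, had log2 signals of 10.05, 10.27, 10.34 and 10.17 in mutant replicates 1 to 4, against 10.33, 10.29, 10.33 and 10.02 in wild-type replicates 1 to 4. The genotypes overlapped, and the difference of −0.033 had a 95% interval of −0.31 to 0.24, so a rise above 0.24 lies outside it. Top2a, the topoisomerase that untangles sister chromatids, had log2 signals of 9.27, 9.47, 9.60 and 9.43 in mutant replicates 1 to 4, against 9.35, 9.42, 9.42 and 9.07 in wild-type replicates 1 to 4. It overlapped as well and differed by 0.12 (−0.16 to 0.41).

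Of the cyclins and mitotic kinases all 6 measured were higher in the mutants, with a median of 0.18. Ccna2, cyclin A2, which acts in S phase and in G2, had log2 signals of 9.48, 9.67, 9.79 and 9.58 in mutant replicates 1 to 4, against 9.39, 9.25, 9.33 and 9.27 in wild-type replicates 1 to 4. Ccnb2, cyclin B2, stood at 9.22, 9.18, 9.39 and 9.36 in mutant replicates 1 to 4, against 9.09, 9.00, 9.10 and 9.13 in wild-type replicates 1 to 4. Both were apart between genotypes, by 0.32 ± 0.11 and 0.20 ± 0.11 (SE; adjusted p = 0.236 and 0.422). The kinases Cdk1, Plk1, Aurka and Aurkb overlapped, with differences of 0.11, 0.16, 0.11 and 0.19. Cdc20 and Ube2c, which drive anaphase by ubiquitin, overlapped and differed by 0.12 and 0.03.

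Kif20a and Tpx2, genes of the spindle, had the 2 highest mitotic differences. Kif20a, a kinesin of the central spindle, had log2 signals of 9.05, 8.96, 9.09 and 8.96 in mutant replicates 1 to 4, against 8.75, 8.55, 8.66 and 8.47 in wild-type replicates 1 to 4. Tpx2, which nucleates spindle microtubules, stood at 9.29, 9.31, 9.49 and 9.30 in mutant replicates 1 to 4, against 9.07, 8.94, 9.04 and 8.74 in wild-type replicates 1 to 4. Neither overlapped, and they differed by 0.41 ± 0.11 and 0.40 ± 0.12 (SE; adjusted p = 0.142 and 0.178). The checkpoint kinase Bub1 had log2 signals of 9.32, 9.51, 9.32 and 9.26 in mutant replicates 1 to 4, against 9.12, 9.10, 9.23 and 8.80 in wild-type replicates 1 to 4, apart by 0.29 ± 0.13 (adjusted p = 0.347).

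Kif11, the kinesin that pushes spindle poles apart, had log2 signals of 9.37, 9.46, 9.67 and 9.62 in mutant replicates 1 to 4, against 9.21, 9.40, 9.43 and 8.97 in wild-type replicates 1 to 4. It overlapped through mutant replicate 1 and wild-type replicates 2 and 3, and differed by 0.28 ± 0.14 (adjusted p = 0.399). The kinesins Kif4 and Kif2c differed by 0.28 and 0.21, and the checkpoint kinases Bub1b and Ttk by 0.19 and 0.16, all with overlap. Anln, anillin of the cleavage furrow, differed by 0.19, and Nusap1, a spindle protein, by 0.083. Birc5, survivin, had log2 signals of 7.44, 7.28, 7.55 and 7.49 in mutant replicates 1 to 4, against 7.54, 7.47, 7.64 and 7.41 in wild-type replicates 1 to 4; it overlapped and differed by −0.077 (−0.33 to 0.17).

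Of the 3 centromere genes 1 was higher in the mutants. Cenpa, the histone H3 variant of centromeres, had log2 signals of 10.80, 10.37, 10.43 and 10.41 in mutant replicates 1 to 4, against 11.04, 11.14, 10.86 and 10.86 in wild-type replicates 1 to 4. All mutant arrays lay below the wild type, with a difference of −0.47 ± 0.14 (SE; adjusted p = 0.167), and mutant replicate 1 was nearest to it. The remaining 3 clusters annotated to Cenpa differed by 0.072, 0.59 and −0.32, and the mean of its probe sets by 0.12. Of the 10 probe sets of Cenpa 7 were higher in the mutants and 3 lower, with a median of 0.21. The lowest of them, at −0.47, has the same difference as the cluster used here. The direction for Cenpa therefore depends on the cluster. Cenpe, a kinesin at the kinetochore, and Cenpf, a kinetochore protein, overlapped and differed by 0.14 and −0.044.

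Set side by side, the mean over replication genes was 8.36, 8.22, 8.34 and 8.29 on mutant arrays 1 to 4, against 8.03, 8.02, 8.12 and 7.88 on wild-type arrays 1 to 4. The mean over mitosis genes was 8.69, 8.79, 8.90 and 8.76 on mutant arrays, against 8.71, 8.65, 8.75 and 8.46 on wild-type arrays. The replication means were apart between genotypes, while the mitosis means overlapped, since mutant replicate 1 lay below wild-type replicates 1 and 3. The gap between both means on an array, replication minus mitosis, was −0.57 to −0.33 on mutant arrays, against −0.68 to −0.58 on wild-type arrays. These are means over chosen genes and carry no test. The order within the mutants differed by class: replicate 1 was highest in replication and lowest in mitosis.

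Further genes of the same pathways also stood mostly higher in the mutants, with none called. Of 50 other replication genes measured, limma called 0, 46 were higher in the mutants, 17 had an unadjusted p under 0.05, all higher, and the median was 0.20. Of 69 other mitosis genes limma called 0, 61 were higher, 15 had an unadjusted p under 0.05, all higher, and the median was 0.17. The genotypes did not overlap in 16 of these replication genes (32%) and 18 of these mitosis genes (26.1%), all with the mutants above. At 1 cluster per symbol 11.9% of genes had all mutant arrays above, and 10.8% were higher at an unadjusted p under 0.05. Among those with means at or above the 50th percentile these shares were 14.3% and 12.5%. Rfc4, a subunit of the clamp loader, had log2 signals of 10.07, 9.86, 10.03 and 9.63 in mutant replicates 1 to 4, against 9.21, 9.07, 9.44 and 8.82 in wild-type replicates 1 to 4. It was apart by 0.76 ± 0.16 (SE; adjusted p = 0.0724). Ccne1, cyclin E1, which starts S phase, had log2 signals of 8.29, 8.06, 8.22 and 8.28 in mutant replicates 1 to 4, against 7.83, 7.64, 7.79 and 7.61 in wild-type replicates 1 to 4. It was apart too, by 0.50 ± 0.11 (adjusted p = 0.087).

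Pole2, Exo1, Chaf1b and Lig1, a polymerase epsilon subunit, an exonuclease, a chromatin assembly factor and a DNA ligase, differed by 0.55, 0.52, 0.52 and 0.64; of these Lig1 overlapped. Among the mitosis genes Pbk, a mitotic kinase, had log2 signals of 7.63, 7.82, 7.82 and 7.54 in mutant replicates 1 to 4, against 7.14, 6.83, 7.30 and 6.76 in wild-type replicates 1 to 4. It was apart by 0.70 ± 0.15 (SE; adjusted p = 0.075). Sgo1, which guards cohesion, Cenpq and Cenpn, centromere proteins, Oip5, a loader of Cenpa, and Ncaph, a condensin subunit, differed by 0.41, 0.46, 0.33, 0.40 and 0.37, all apart.

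The exon-level table gives the same arrays probe set by probe set, so it adds detail and no independent replicates. Of 739 probe sets in 42 of the genes, limma called 56 higher and 1 lower in the mutants, where 1.46% of all 375483 probe sets were called higher and 1.21% lower (2.67% in all). Among probe sets with 1 symbol 3.57% were called, 2.35% higher. Replication held 37 of 292 (12.7%) and mitosis 19 of 447 (4.25%). Called or not, 625 of 739 (84.6%) were higher, against 51.1% of all and 60.2% of those with 1 symbol. The count of called sets was 9, 16, 5 and 14 without mutant replicates 1 to 4, and 15, 9, 59 and 33 without wild-type replicates 1 to 4. With the code letter as a random block it was 8, all higher, where 2765 of all 375483 probe sets were called.

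Within genes the probe sets mostly pointed one way. Rrm1 had 10 of 21 called, and all 21 were higher, by 0.31 to 1.22. All 22 sets of Mcm4 and all 17 of Mcm2 were higher, with 2 and 3 called, and Pola1 had 35 of 37 higher, 5 of them called. Mki67 was split, 12 higher and 8 lower with none called, as were Cenpf (10 and 13) and Mcm6 (13 and 8, 1 called higher).

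The smallest p belonged to a Nusap1 probe set (5276431), with log2 signals of 12.35, 12.04, 12.27 and 12.18 in mutant replicates 1 to 4, against 11.35, 11.07, 11.37 and 11.10 in wild-type replicates 1 to 4. It rose by 0.99 ± 0.14 (SE; adjusted p = 0.00745), without overlap. Next came sets of Pola1 (0.82 ± 0.12), Rrm1 (1.22 ± 0.18), Pola2 (1.24 ± 0.19), E2f8 (0.83 ± 0.13) and Tpx2 (1.19 ± 0.19), with adjusted p of 0.0105, 0.0109, 0.0119, 0.0139 and 0.0147. All these probe sets rose, and in each the genotypes were apart.

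**Figure D3:**
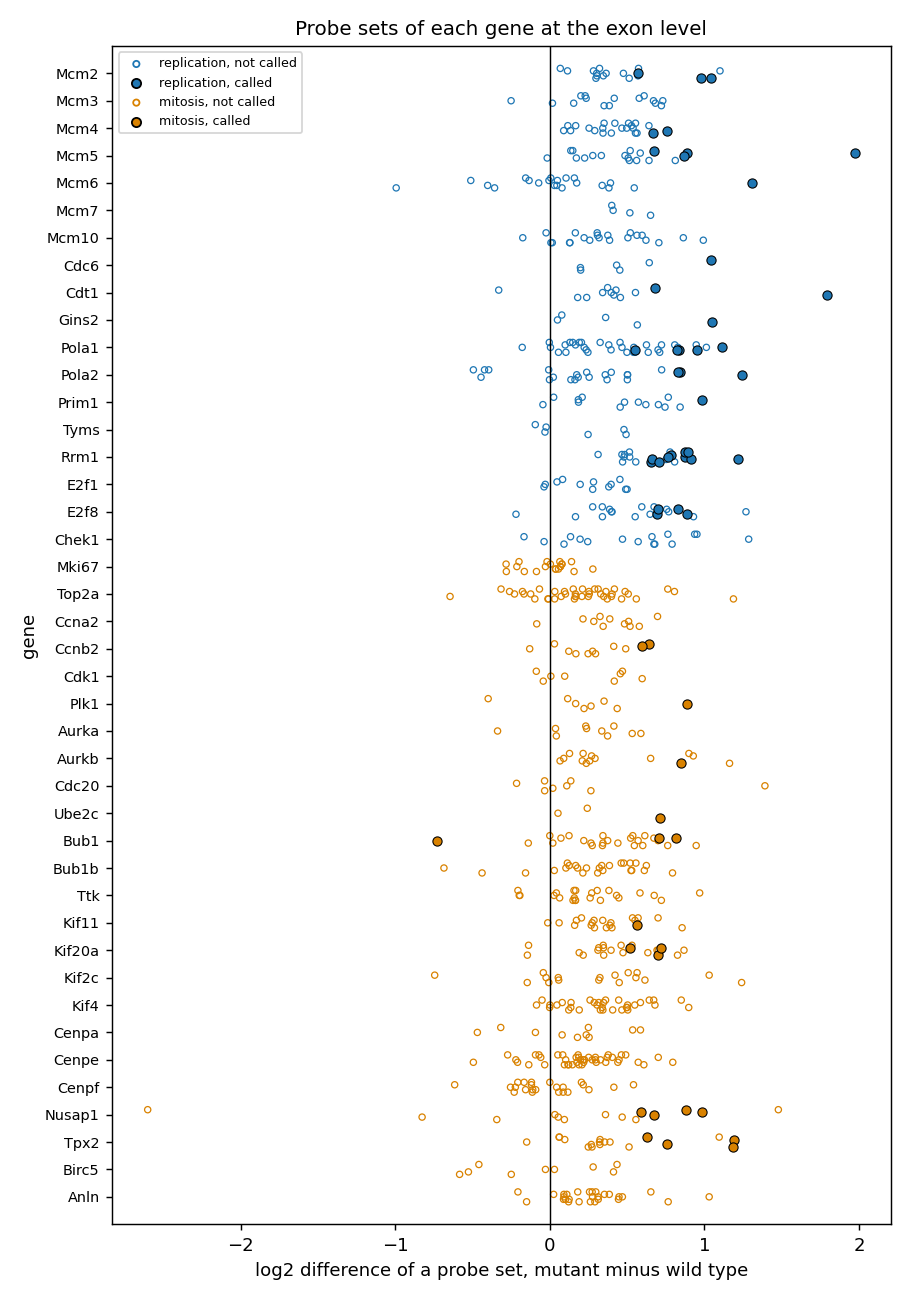
Log2 difference of every exon-level probe set, mutant minus wild type, in 42 of the genes (replication blue, mitosis orange); filled points were called at an adjusted p under 0.05. Points lie mainly right of 0, Rrm1 has the most filled points (10), and a single Nusap1 set lies at −2.60.

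Exon usage is the departure of a probe set from the mean of its gene's other probe sets. It was called in 5 of 41 genes tested, where 4.66% of 10274 genes had a call. By probe set, 6 of 647 were called, where 0.449% of all 128589 tested were. In Bub1, probe set 4840288 stood at 8.13, 8.06, 8.02 and 8.34 in mutant replicates 1 to 4, against 8.87, 9.02, 8.79 and 8.79 in wild-type replicates 1 to 4. It fell by 0.73 while its gene's other sets were higher on average, a usage difference of −1.16 ± 0.15 (SE; adjusted p = 0.0179). It is the 1 called set that is lower in the mutants. Pola2 had a usage difference of 0.99 in set 5379193 and −0.76 in set 5466905 (adjusted p = 0.0356 and 0.0471). Cdt1, Tpx2 and Mcm2 had 1 each, of −0.87, 0.79 and 0.57 (adjusted p = 0.0356, 0.0377 and 0.0438). The count was 0, 1, 0 and 1 without mutant replicates 1 to 4, and 1, 1, 13 and 4 without wild-type replicates 1 to 4. With the code letter as a random block 0 genes had a usage call in limma, so all 5 calls were lost.

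Other Nusap1 probe sets, chosen after their values were seen, set mutant replicate 2 apart. Set 4767822 stood at 8.22, 10.91, 8.02 and 7.20 in mutant replicates 1 to 4, against 11.62, 11.23, 11.60 and 10.29 in wild-type replicates 1 to 4. Mutant replicate 2 lay within the wild-type range and the remaining mutants below it, and the mean difference of −2.60 ± 0.68 (SE) was not called (adjusted p = 0.0769). Set 4855802 stood at 6.30, 7.53, 6.80 and 7.06 in mutant replicates 1 to 4, against 8.13, 7.87, 7.91 and 7.08 in wild-type replicates 1 to 4, again with mutant replicate 2 highest of the mutants. Nusap1, Bub1 and Tpx2 lie on chromosome 2, as does Wt1, while Pola2, Cdt1 and Mcm2 lie on other chromosomes. The background is mixed, and whether strain differences in sequence under the probes play a part in these sets was not tested.

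Markers of other cells in a glomerular preparation moved with genotype as well, and their part in these results was not tested. Over all clusters 0.336% were called higher and 0.49% lower, and at 1 cluster per symbol 155 and 110 of 18302 were. Of 12 markers of nephron progenitors, which are dividing cells, 5 were called higher and 0 lower. Their mean level over the list was 7.83 to 7.98 on mutant arrays, against 7.42 to 7.52 on wild-type arrays. Itga8, which is in the mesangial list too, lay below the wild type on all 4 mutant arrays, with a difference of −0.45 ± 0.12 (SE; adjusted p = 0.146). Six2, which keeps progenitors undifferentiated, had log2 signals of 8.33, 8.38, 8.55 and 8.44 in mutant replicates 1 to 4, against 7.60, 7.32, 7.42 and 7.50 in wild-type replicates 1 to 4, and rose by 0.96 ± 0.11 (SE; adjusted p = 0.00686). Cited1, another progenitor gene, stood at 6.91, 6.96, 7.14 and 7.00 in mutant replicates 1 to 4, against 6.92, 6.90, 6.93 and 7.36 in wild-type replicates 1 to 4, with overlap. The lists were chosen with earlier results known.

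Markers of podocytes, endothelium and proximal tubule lay lower in the mutants, and so did the mean levels of the mesangial and leukocyte lists. Podocyte markers had 3 of 8 called lower, where 0.49% of all clusters were. The podocyte list had means of 8.19 to 8.51 in the mutants, against 8.86 to 9.03 in the wild type. The 3 called podocyte markers include Cdkn1c, a cell cycle inhibitor, which fell by 1.06 (limma adjusted p = 0.0302). Glomerular endothelium had 1 of 10 called lower (8.87 to 8.94 on mutant arrays, 9.21 to 9.39 on wild-type arrays) and proximal tubule 5 of 10 (8.29 to 8.68 on mutant arrays, 9.11 to 9.33 on wild-type arrays). Of the mesangial, stromal, leukocyte and erythroid markers 0 of 7, 8, 6 and 4 were called by limma, with 2, 0, 2 and 0 at an unadjusted p under 0.05, and of the distal markers 1 of 8, higher. Those 2 mesangial and 2 leukocyte markers were lower in the mutants, where 1057 of 18302 genes at 1 cluster per symbol were lower at that level. The mesangial mean was 8.91 to 9.03 on mutant arrays, against 9.04 to 9.26 on wild-type arrays. The leukocyte mean was 6.57 to 6.71 on mutant arrays, against 6.81 to 6.94 on wild-type arrays. Within these lists 3 of 7 mesangial and 1 of 6 leukocyte markers went the other way.

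**Figure D4:**
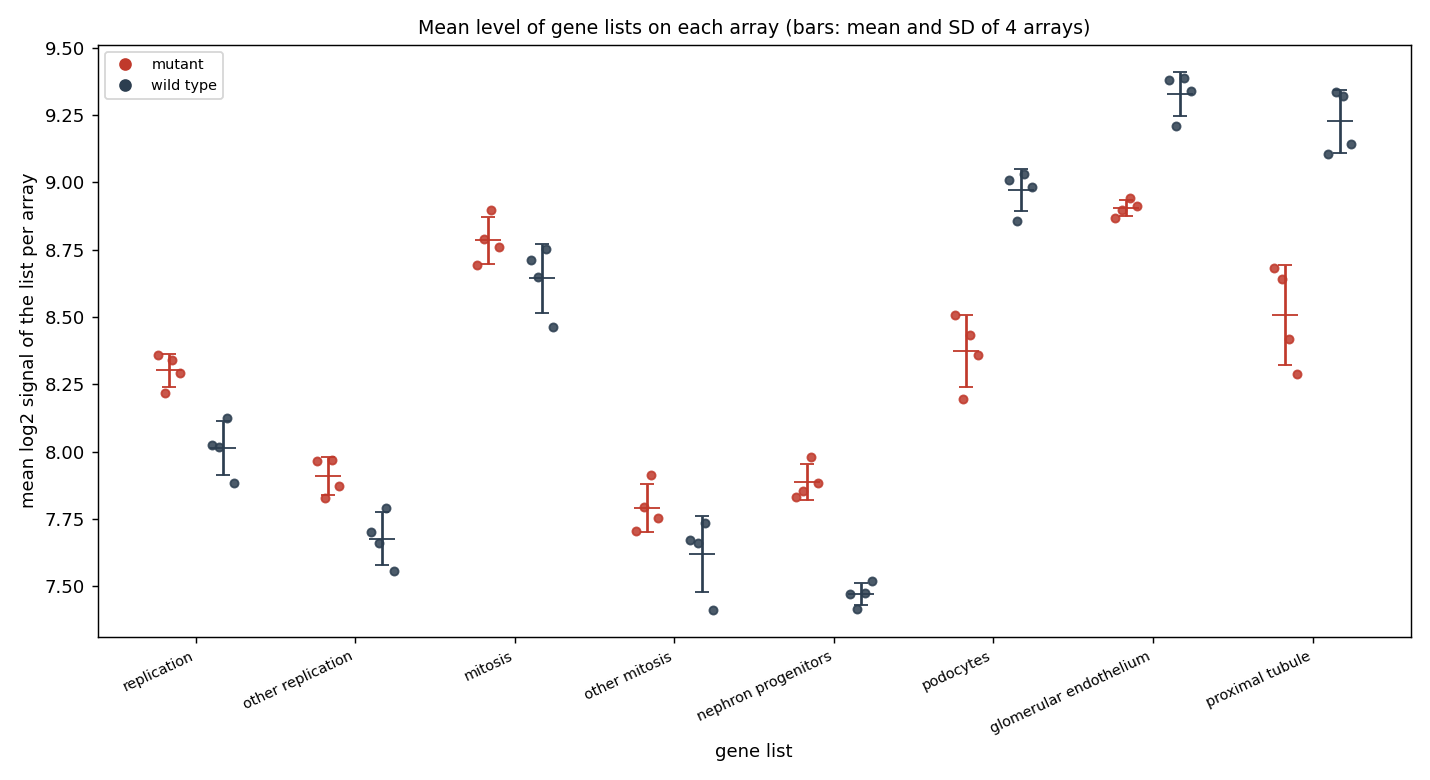
Mean log2 signal of 8 gene lists on each array (points; mutants red and left, wild type dark and right), with the mean and SD of 4 arrays as bars. Replication and nephron progenitor lists lie higher in every mutant array than in any wild-type array, mitosis lists overlap, and podocyte, endothelial and proximal tubule lists lie lower in every mutant array; levels of different lists are not comparable.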

How the data were processed

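The authors deposited log2 values. RMA, a method that normalizes arrays together and summarizes probes on the log2 scale, Partek and the mouse build mm9 are named per the submitters' processing notes, with no version. The 16 samples are 2 summaries of the same 8 arrays, 93623 transcript clusters and 375483 probe sets. RMA pulls dim signals to a floor, so small log2 differences may be understated, and the number of arrays limits the precision. Symbols came from the platform annotation, updated through RefSeq; rows with 1 symbol numbered 20707 and 192914, with several 1349 and 1399, with none 71567 and 181170. Probe sequences were not used here, so near-identical gene copies are uncertain.

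The test was limma's (3.58.1, under R 4.3.3; lmFit, eBayes, two-sided, no covariate), adjusted by Benjamini-Hochberg over every row of a table, threshold 0.05; usage used probe sets at or above the 50th percentile and at least 3 per gene. Steps were tested on simulated data. Named genes are, per class, the 7 of smallest p and the 2 lowest differences, with Mki67, Top2a and Pcna, the 6 of smallest p in each list of other genes, and the 6 probe sets of smallest p with every usage call. Members and lists were chosen with earlier results of these data known. The p-values set a difference against the spread between arrays within a genotype, where embryo, array and code letter are mixed. Alternatives were other variance models, blocks, scalings, filters and leaving out each array.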

Additional observations from a re-analysis of the deposited data

Results flagged for a closer look

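In 148 groups of 4 arrays, 11 had an array far from the other 3 by Dixon's test at its 95% critical value; chance gives about 1 in 20. Among mutant arrays, replicate 1 had a Cenpa signal of 10.80 (the other 3 at 10.37 to 10.43). Replicate 3 had a Tpx2 signal of 9.49 (the other 3 at 9.29 to 9.31), an Ncaph signal of 8.89 (the other 3 at 8.70 to 8.73), and a mean over all 43 genes of 8.65 (the other 3 at 8.54 to 8.55). Replicate 4 had an E2f1 signal of 7.56 (the other 3 at 7.25 to 7.28) and a Cenpq signal of 7.66 (the other 3 at 7.83 to 7.86). Among wild-type arrays, replicate 4 was the array set apart each time: low for Mcm3 at 7.91 (the other 3 at 8.17 to 8.20), Mcm7 at 7.26 (the other 3 at 7.59 to 7.63), Mki67 at 10.02 (the other 3 at 10.29 to 10.33) and Kif2c at 7.83 (the other 3 at 8.07 to 8.10), and high for Ube2c at 8.09 (the other 3 at 7.95 to 7.96).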

How the results depend on the processing

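Under 17 alternatives 38 of the 43 genes kept the sign of their difference wherever they had a value (Pcna had none with probe set means). Mcm6, Mki67, Cenpa, Cenpf and Nusap1 did not. The replicate block, the trend and robust options and the row filters cannot change a difference, so only the other alternatives bear on its sign. The count of called genes was 1 with trend and robust options, 1 with clusters at or above the 50th percentile, 11 with 1-symbol clusters, 17 with probe set means and 10 with the mean over a symbol's clusters, and 0 otherwise. For the other replication genes it was 1, 1, 2, 9, 14 and 10 with array weights, trend and robust options, the percentile filter, 1-symbol clusters, probe set means and cluster means, and 0 to 1 when an array was left out. For the other mitosis genes it was 1, 1, 3, 13 and 5 with array weights, the filter, 1-symbol clusters, probe set means and cluster means. Those filter, 1-symbol and mean settings tested fewer rows, and the mean settings changed the values too. The cluster mean of Mcm7, called in that setting, takes in its second cluster. Of all rows 0.827% were called in the main fit, 2.56% with the filter, 6.8% with 1-symbol clusters and 11.4% with probe set means. A larger count in such a setting is therefore not by itself a result about these genes. The replication median was 0.46 with probe set means, and the medians with an array left out were 0.30 to 0.39 (replication) and 0.088 to 0.21 (mitosis).

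Called probe sets numbered 8 with the code letter as a random block (correlation from every 10th row), 118 with trend and robust options, 96 with brighter sets alone, and 5 to 59 with an array left out. Genes with a usage call numbered 0, 11 and 20 with the letter block, array weights and diffSplice, and 0 to 13 with an array left out. Of all 375483 probe sets 10035 were called in the main fit and 2765 with the letter block, so the total moved too. Totals with trend and robust options, brighter sets, array weights, diffSplice or an array left out are not given here. A larger count in those settings is therefore not by itself a result about these genes. With probe set means Cenpa and Mcm6 stood at 0.12 and 0.047; Mki67 stood at 0.021 without mutant replicate 1 and Mcm6 at 0.018 without wild-type replicate 3. Leaving out wild-type replicate 4 put Mcm6 and Mki67 at −0.14 and −0.11. The cause was not tested. Same-numbered arrays deviated together with correlations of −0.0048 to 0.26, so the numbers were not taken as pairs (not every one was over 0.1). Of these, 2 of 4 matched their own number best. With the replicate block, 34 probe sets, 1 gene by usage and 0 genes were called, where 7859 of all 375483 probe sets were. The gene-level medians stayed at 0.34 and 0.16, which a balanced block cannot change. The number of arrays, 4 a genotype, limits what differences can be called.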
